A study of Mus musculus with 8 samples.

Results

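The Rab genes encode small GTPases that mark the membranes of the secretory and endosomal pathways. Members were taken as every annotated gene whose symbol is Rab followed by a number and, at most, a paralog letter and digit, which gave 59 of 30211 genes. They were described in nuclei of the mouse hippocampus, in 8 single-nucleus RNA libraries from 1 mouse each. A Rab protein is switched on by an exchange factor that loads GTP, is switched off by a GTPase-activating protein, and in its active form recruits effectors such as tethers and motors to one kind of vesicle. In neurons, the Rab3 and Rab27 proteins are known for the release of synaptic vesicles and secretory granules, and in phagocytic and pigment cells others serve lysosome-related organelles.

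The mice were C57BL/6 by the labels and, by the study's methods, were kept on a C57BL/6N background. At 7 mo of age, 3 WT mice and 3 GKO mice were used; GKO mice lack exons 9 to 11 of Gsap, the gene of the γ-secretase activating protein, in every tissue through a CMV-Cre driver. At 6 mo, 1 J20;WT and 1 J20;GKO mouse were used; J20 mice carry human APP with the Swedish and Indiana mutations under a PDGFB promoter, and the J20;GKO mouse combines the transgene with the Gsap deletion. Libraries held 2731 to 5252 nuclei and 21020159 to 43310978 unique molecular identifiers (UMIs), 32041 nuclei in all, and 2 libraries shared 2 to 21 cell barcodes. Gsap was at 22.3 to 23.0 CPM (UMIs scaled to a common library total) in WT and at 19.8 to 22.0 in GKO libraries, and these 3′ tags can lie outside the deleted exons, so they do not check the labels. WT 1, GKO 1 and J20;GKO held Xist at 2135 to 2410 CPM and the other 5 libraries at no more than 3.00. By the date that the deposited data carry, WT 1 and GKO 1 form one group, J20;WT stands alone and the remaining 5 form another, so that among WT and GKO mice date and Xist class cannot be told apart.

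Nuclei were gated into 6 major types by marker genes, none of which is a Rab gene: 15114 excitatory neurons, 1986 inhibitory neurons, 2734 astrocytes, 6870 oligodendrocytes, 1094 oligodendrocyte progenitor cells (OPCs) and 2088 microglia. Within excitatory neurons, gates for dentate granule, CA1 and CA3 pyramidal neurons took 6251, 2584 and 1485 nuclei. UMIs were summed per library and type and are given as CPM of that sum. Levels of a gene were compared between types and libraries, never between genes. All Rab genes together made up 2438 to 2519 CPM of a library. Free RNA sets a floor in such data. The 7 excitatory markers followed for this, among them Slc17a7 and Neurod6, were found in glial types at medians of 9.9% (astrocytes), 12.6% (oligodendrocytes), 10.4% (OPCs) and 15.4% (microglia) of their excitatory level.

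Of the 59 members, 52 had at least 100 UMIs over the 6 types. Mean CPM was highest in microglia for 22 of these, in inhibitory neurons for 10, in astrocytes for 6, in oligodendrocytes for 6, in excitatory neurons for 5 and in OPCs for 3. In 9 of the 22 microglial members, every library's microglial value lay above every library's value in the second type. The same ranks were not computed over all genes, so these counts do not set the family apart. CPM is scaled by the total alone, which placed the median of all genes in microglia 0.25 higher (log2) than the TMM scaling of the tests below. The low-count filter left 51 members for the test of cell types. Rab17, Rab25, Rab44, Rab7b, Rab4b and Rab19 had 2, 27, 16, 72, 92 and 132 UMIs and were not tested. Rab43 and Rab4a had 0 UMIs in the 6 types. Each overlaps on its own strand an annotated gene that was counted, Gm45140 with 30 UMIs and Gm20388 with 323600 UMIs, so the 0 does not show that the genes are silent.

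**Figure D1:**
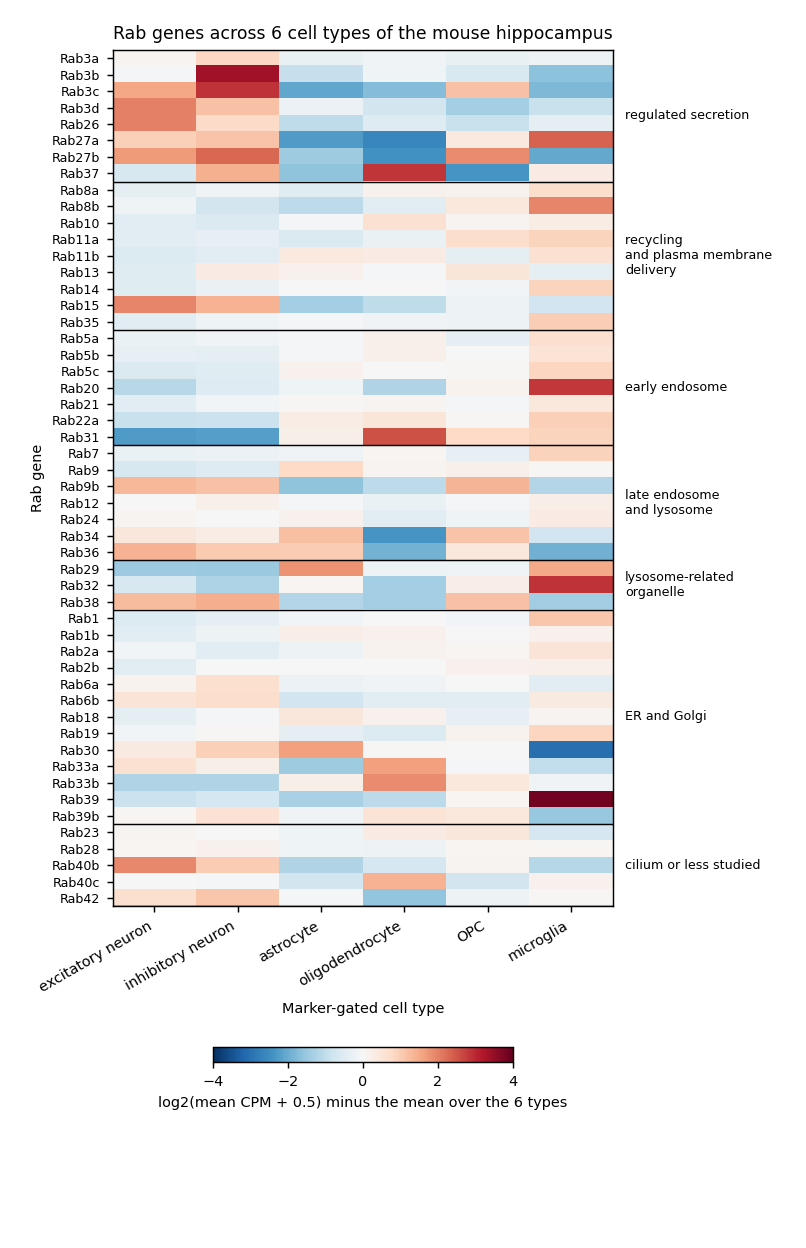
Mean expression of the 52 Rab genes with at least 100 UMIs in 6 cell types, as log2(mean CPM + 0.5) minus each gene's mean over the types, with genes grouped by membrane role. Red is above and blue below the gene's own mean. Dark red cells include Rab39, Rab32 and Rab20 in microglia, Rab3b and Rab3c in inhibitory neurons, and Rab37 and Rab31 in oligodendrocytes. Dark blue cells include Rab30 in microglia and Rab27a in oligodendrocytes.

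Each type was compared with the mean of the other 5 in edgeR, with the library as a block, and a gene was called at a Benjamini-Hochberg adjusted p below 0.05 over all genes and an absolute log2 fold change above 1. Of the 51 members, 28 were called in at least 1 type and 25 were higher in at least 1. In inhibitory neurons 13 members were higher, against 16.7% of all genes, and 5 lower, against 11.4%. In excitatory neurons 10 were higher, against 17.3%, and 4 lower, against 12.6%. In astrocytes the counts were 4 higher (15.8% of all genes) and 13 lower (14.2%). In oligodendrocytes they were 5 higher (11.6%) and 12 lower (22.2%). In OPCs they were 5 higher (13.4%) and 3 lower (9.44%). In microglia they were 7 higher (16.1%) and 14 lower (25.9%). Scaled by library size alone in place of TMM, which moved the median of all genes in microglia by 0.25 on the log2 scale, the microglial counts were 14 higher and 11 lower. As shares of 51, the members called higher came to 25.5% in inhibitory and 19.6% in excitatory neurons and to 7.84% to 13.7% in the 4 glial types. Most of these shares were near those of all genes, so the counts alone set the family apart from other genes little; the differences lay in which members were called where.

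The Rabs of regulated secretion, 8 members, were called higher mainly in neurons: 6 were higher in inhibitory neurons and 5 in excitatory neurons, none was lower in either, and 0 to 2 were higher and 3 to 6 lower in each glial type. Rab3b, a synaptic vesicle Rab, lay at 59.3 to 147 CPM with a median of 113 in inhibitory neurons and at 5.64 to 14.1 CPM with a median of 9.23 in excitatory neurons. No inhibitory library fell to the level of any other type. The log2 fold change against the other 5 types was 4.15 ± 0.11 (SE), adjusted p = 3.25e-37. Rab3c, its paralog, lay at 301 to 432 CPM with a median of 377 in inhibitory and at 128 to 179.7 CPM with a median of 144 in excitatory neurons, with log2 fold changes of 3.48 ± 0.07 and 1.99 ± 0.07 (SE). The inhibitory values were above every excitatory value. Rab3d was led by excitatory neurons, at 9.26 ± 1.46 CPM (SD, n = 8) and a log2 fold change of 2.87 ± 0.18 (SE), adjusted p = 2.12e-20. Rab3a, the most studied Rab of synaptic vesicles, was called in no type: it averaged 62.6 ± 17.3 CPM in inhibitory neurons, 37.7 ± 5.74 in excitatory neurons and 28.1 to 31.5 in the glial types, with a log2 fold change of 0.97 ± 0.09 in inhibitory neurons. The overlapping gene Mpv17l2 lies on the opposite strand of Rab3a.

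The 250 bases of RefSeq sequence before the annotated start of the neuronal Rab3b and Rab3c (GRCm38.p6) are shown because these paralogs led the inhibitory contrast; Rab3b is at chr4:108878820-108879069 on the plus strand and Rab3c at chr13:110280207-110280456 on the minus strand. Capitals mark GGGCGG, a box read by Sp and KLF factors, on either strand, and TATAAA.
Rab3b: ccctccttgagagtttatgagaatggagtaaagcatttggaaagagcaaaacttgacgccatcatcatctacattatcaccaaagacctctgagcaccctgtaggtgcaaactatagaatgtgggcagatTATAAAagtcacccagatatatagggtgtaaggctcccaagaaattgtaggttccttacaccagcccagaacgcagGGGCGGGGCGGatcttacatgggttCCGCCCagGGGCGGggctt
Rab3c: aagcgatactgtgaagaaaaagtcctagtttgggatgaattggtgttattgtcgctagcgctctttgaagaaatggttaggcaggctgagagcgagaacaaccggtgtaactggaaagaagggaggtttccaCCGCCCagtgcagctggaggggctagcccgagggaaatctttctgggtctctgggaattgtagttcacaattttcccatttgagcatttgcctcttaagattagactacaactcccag

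The Rab3b stretch held 4 GGGCGG boxes, of which 2 overlap, and 1 TATAAA, and the Rab3c stretch held 1 box. In windows of the same length, 35.4% of 27025 genes held GGGCGG and 14.3% held TATAAA on either strand, and 35 and 4 of the 47 members matched in the table did. The match of letters does not show that a factor binds there. In the GENCODE annotation Rab3c starts farther upstream, at chr13:110280996, so the whole Rab3c window lies inside that gene. Rab3b starts there at chr4:108879063, within the last bases of its window.

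Rab27a and Rab27b, which dock secretory granules and drive exosome release, were both lower in astrocytes and oligodendrocytes and were higher in different glia. Rab27b lay at 86.7 to 114 CPM with a median of 102 in inhibitory neurons, at 59.5 to 78.04 CPM with a median of 67.7 in excitatory neurons and at 47.5 to 103 CPM with a median of 80.97 in OPCs, and at means of 3.39 to 7.21 in the other glia. It was called in inhibitory neurons (2.81 ± 0.11, SE), OPCs (2.25 ± 0.15) and excitatory neurons (2.20 ± 0.11). Rab27a was highest in microglia, at 95.7 to 144 CPM with a median of 105, above every other type in every library, with a log2 fold change of 2.63 ± 0.10 (SE), adjusted p = 2.50e-29. It was also called higher in both neuron types, at 41.8 ± 6.12 CPM in excitatory and 47.99 ± 10.1 in inhibitory neurons (SD, n = 8). In oligodendrocytes it was at 3.09 ± 1.07 CPM and in astrocytes at 4.01 ± 2.62, the lowest member of both contrasts, with log2 fold changes of -3.08 ± 0.16 and -2.71 ± 0.17.

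OPCs shared several neuronal members. Rab3c stood in OPCs at 92.6 to 155 CPM with a median of 109, which is 76.5% of its mean excitatory level, and Rab27b at 115%, where the excitatory markers reached at most 47.1%. In astrocytes, oligodendrocytes and microglia Rab3c stood at 7.70%, 9.94% and 9.59% and Rab27b at 10.7%, 5.05% and 6.82%. These lay within the wide ranges of those markers, 6.81% to 19.0%, 4.11% to 27.7% and 5.45% to 30.9%. Whether such levels are background or low expression was not tested. Rab9b, a late endosome Rab, was also called higher in OPCs (1.73 ± 0.22, SE; 14.7 ± 4.803 CPM, SD, n = 8), as was Rab38 (1.72 ± 0.42), which rested on 1 to 5 UMIs per library. Rab37 was the lowest member in OPCs, at -3.49 ± 0.73.

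Rab26 and Rab37 close the secretory group. Rab26, a Rab of secretory granules and synaptic vesicle clusters, lay at 53.2 to 99.6 CPM with a median of 77.3 in excitatory neurons and at 24.4 to 37.9 CPM with a median of 32.9 in inhibitory neurons, which did not overlap; its log2 fold change in excitatory neurons was 2.56 ± 0.10 (SE), adjusted p = 2.65e-28. Traf7, which overlaps it on the same strand, was at 17.8 to 27.4 CPM in all 6 types, so that reads could be split between them. Rab37, known from the granules of mast cells and endocrine cells, was highest in oligodendrocytes at 19.97 to 62.7 CPM with a median of 32.9 and next in inhibitory neurons at 7.41 to 19.1 CPM with a median of 13.7. It was called in both, at 3.85 ± 0.20 (SE), adjusted p = 1.24e-22, in oligodendrocytes and at 1.93 ± 0.24 in inhibitory neurons.

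**Figure D2:**
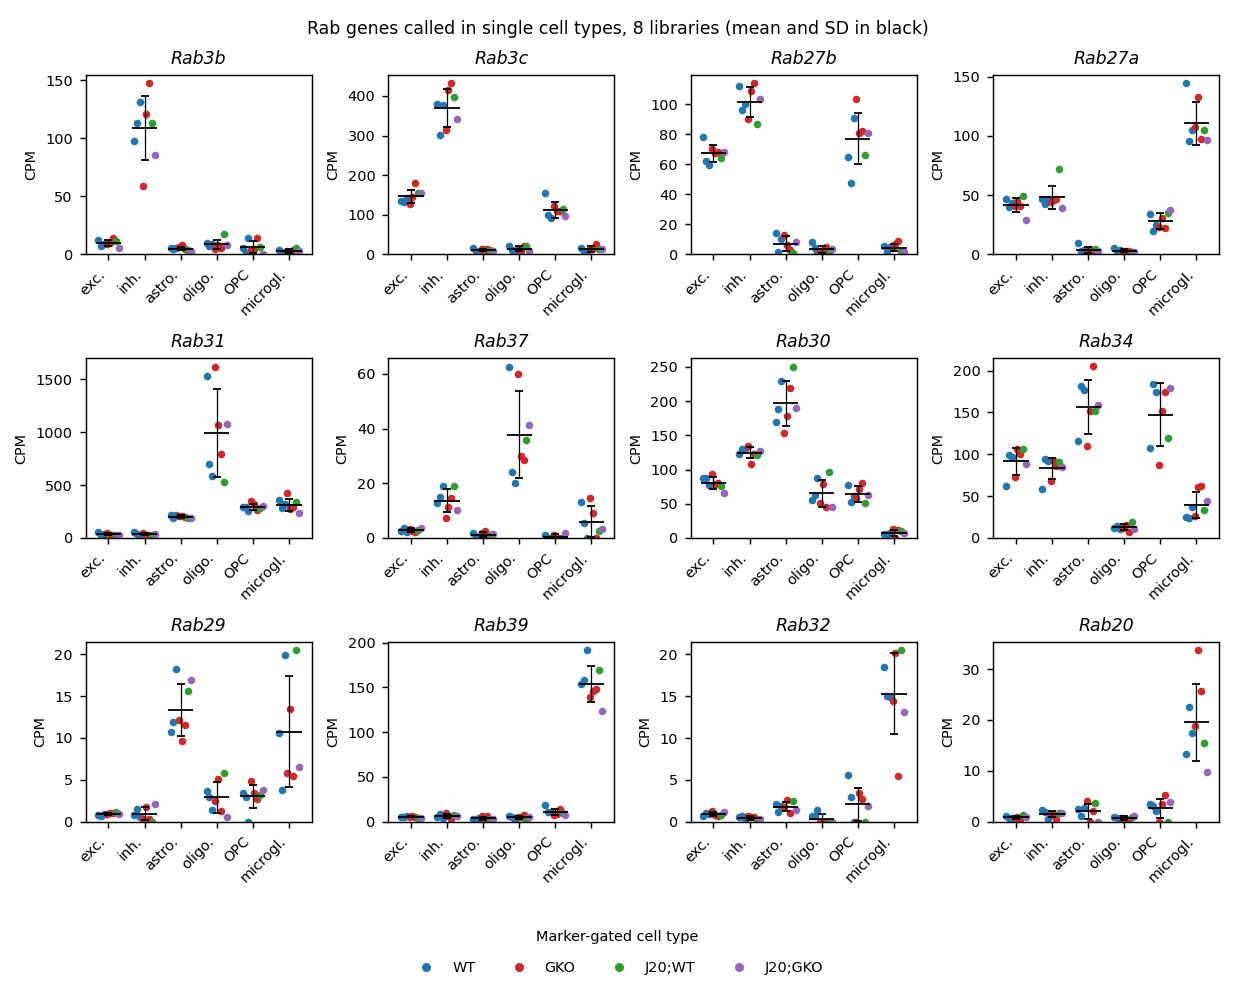
CPM of 12 Rab genes in each of the 8 libraries (points, coloured by group) in 6 cell types, with the mean and SD in black and a linear axis from 0 for each gene. Rab3b rises above its other types in inhibitory neurons, Rab31 in oligodendrocytes with WT 1 and GKO 1 at the top, and Rab39, Rab20 and Rab27a in microglia in all 8 libraries.

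Among the 13 members of recycling and delivery to the plasma membrane, 9 were tested. Rab15, which acts at recycling endosomes, lay at 33.6 to 58.4 CPM with a median of 45.4 in excitatory and 24.98 to 38.9 CPM with a median of 28.9 in inhibitory neurons, and was called in both (2.49 ± 0.11 and 1.70 ± 0.13, SE). Rab8b, a Rab of exocytic carriers, lay at 208 to 304 CPM with a median of 266 in microglia, at least 208 CPM in every library where no other type passed 119, and its log2 fold change was 2.11 ± 0.07 (SE), adjusted p = 6.46e-32. Its paralog Rab8a was called in no type, at 17.1 ± 4.09 CPM in microglia and 7.87 ± 0.385 in excitatory neurons (SD, n = 8). Rab11a and Rab11b, the Rabs of the recycling endosome, were called in no type: Rab11a was at 0.86 ± 0.09 in microglia and 0.76 ± 0.09 in OPCs, and Rab11b at 0.54 ± 0.06 in oligodendrocytes. Rab10, which carries cargo to the surface, was at 239 ± 21.2 CPM in oligodendrocytes against 105 ± 8.85 in inhibitory neurons, a log2 fold change of 0.85 ± 0.04 that stayed under the threshold of 1. The antisense gene Rab10os, which overlaps it, was counted as a gene of its own, with 8382 UMIs.

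Early endosome Rabs were led by glia. Rab31, which works between the trans-Golgi network and endosomes, lay at 528 to 1619 CPM with a median of 929.5 in oligodendrocytes, above every value of the other types. Its log2 fold change was 3.13 ± 0.08 (SE), adjusted p = 4.23e-34 in oligodendrocytes and -2.63 ± 0.11 and -2.63 ± 0.12 in excitatory and inhibitory neurons. Microglia averaged 315 ± 56.9 CPM, OPCs 293 ± 28.7, astrocytes 201 ± 11.1 and excitatory neurons 35.3 ± 10.9 (SD, n = 8). Rab20, tied to phagosomes, lay at 9.85 to 33.7 CPM with a median of 18.1 in microglia from 6 to 15 UMIs a library, and was called there at 3.54 ± 0.28 (SE), adjusted p = 8.72e-17. Rab22a, a paralog of Rab31, was lower in inhibitory neurons (-1.04 ± 0.07, SE). Rab5a, Rab5b and Rab5c, the core Rabs of early endosomes, were called in no type, and each was at its highest mean in microglia, at 85.7 ± 16.8, 187 ± 26.6 and 49.5 ± 8.93 CPM.

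The stretch before Rab31 (chr17:65772753-65773002, minus strand, GRCm38.p6) is shown because Rab31 was high in oligodendrocytes and low in both neuron types; its 1 GGGCGG box is in capitals.
Rab31: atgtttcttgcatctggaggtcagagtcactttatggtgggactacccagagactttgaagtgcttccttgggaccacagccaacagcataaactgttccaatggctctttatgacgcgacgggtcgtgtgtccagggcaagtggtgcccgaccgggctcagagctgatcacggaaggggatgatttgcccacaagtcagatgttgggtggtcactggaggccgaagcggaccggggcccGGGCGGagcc

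Among late endosome and lysosome Rabs, Rab34 and Rab36, which position lysosomes, were low in oligodendrocytes. Rab34 lay at 110.0 to 205 CPM with a median of 155 in astrocytes and 87.2 to 184 CPM with a median of 163 in OPCs, and at 7.15 to 19.3 CPM with a median of 12.03 in oligodendrocytes. It was called higher in astrocytes (1.54 ± 0.07, SE) and OPCs (1.30 ± 0.09) and lower in oligodendrocytes (-2.69 ± 0.11) and microglia (-1.19 ± 0.12); with library size alone the microglial difference was -0.93, under the threshold. Rab36 was higher in excitatory neurons (1.81 ± 0.09), inhibitory neurons (1.30 ± 0.11) and astrocytes (1.30 ± 0.12), at 42.4 ± 7.44, 33.2 ± 5.22 and 32.5 ± 7.68 CPM. Rab7, the Rab of late endosomes, was called in no type, with 109 ± 23.99 CPM in microglia and 48.2 ± 3.81 in excitatory neurons and a log2 fold change of 0.86 ± 0.09 in microglia. It overlaps the antisense Gm5577, which had 10370 UMIs.

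All 3 Rabs of lysosome-related organelles were called, Rab32 and Rab29 higher in microglia and lower in inhibitory neurons, and Rab38 the other way in both. Rab32, which builds such organelles in pigment cells, lay at 5.502 to 20.5 CPM with a median of 14.97 in microglia from 3 to 14 UMIs a library; the lowest microglial value was below the highest OPC value of 5.61, and the log2 fold change was 3.75 ± 0.29 (SE), adjusted p = 3.13e-17. Its paralog Rab38 was instead higher in inhibitory (2.34 ± 0.25) and excitatory neurons (2.08 ± 0.21). Rab29, a Golgi Rab that recruits the kinase Lrrk2, lay at 9.61 to 18.2 CPM with a median of 12.1 in astrocytes and at 3.75 to 20.5 CPM with a median of 8.59 in microglia, where it rested on 2 to 8 UMIs a library. It was called in astrocytes (2.45 ± 0.21 (SE), adjusted p = 2.49e-15) and in microglia (1.69 ± 0.31), and averaged under 1 CPM in both neuron types. Among the other Rabs followed here as substrates or partners of Lrrk2, Rab8b and Rab32 were called higher in microglia as above. Rab8a, Rab10, Rab12 and Rab35 were called in no type, and Rab43 had 0 UMIs. Rab12 ranged from 57.7 ± 7.696 CPM in oligodendrocytes to 83.6 ± 6.95 in microglia, and Rab35 from 9.81 ± 0.736 in excitatory neurons to 27.1 ± 6.03 in microglia.

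The ER and Golgi group, 14 members with 12 tested, held the member with the largest microglial fold change. Rab39, a Rab of phagosomes and autophagy, lay at 123 to 192 CPM with a median of 151 in microglia and at no more than 17.9 CPM in any library of any other type, with a log2 fold change of 4.45 ± 0.12 (SE), adjusted p = 1.05e-37. Its paralog Rab39b went the other way in microglia: 2.69 ± 1.605 CPM against 13.2 ± 3.56 in inhibitory neurons, a log2 fold change of -2.23 ± 0.29. Rab39b was called higher in no type. Inhibitory neurons, oligodendrocytes and OPCs stood at 145%, 142% and 128% of its excitatory level, and astrocytes at 85.6%. Rab1, which carries cargo from the ER to the Golgi, was called in microglia at 1.08 ± 0.07, while Rab1b, Rab2a, Rab2b and Rab6a were called in no type. Rab6b, a Golgi Rab enriched in brain, passed only the contrast of neurons with glia (1.00 ± 0.05), and fell under the threshold, at 0.93 with library size alone and at 0.97 in DESeq2.

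Rab30, a Golgi Rab, lay at 153 to 250.3 CPM with a median of 189 in astrocytes and at 0 to 13.04 CPM with a median of 7.01 in microglia. The astrocyte values were above every value of other types, and the log2 fold changes were 2.02 ± 0.10 (SE), adjusted p = 6.90e-24 in astrocytes and -3.91 ± 0.21 in microglia, the lowest of any member in any major type. Rab33b, which binds the autophagy protein Atg16l1, lay at 30.9 to 74.9 CPM with a median of 60.95 in oligodendrocytes and was called there at 2.47 ± 0.10, as was Rab33a at 2.11 ± 0.14. Rab40c, of a subfamily that joins ubiquitin ligases, lay at 303 to 373 CPM with a median of 339 in oligodendrocytes, above all other types (1.81 ± 0.05), but the overlapping opposite-strand Gm26694 was also highest there, at 611 CPM. Rab40b was higher in excitatory neurons (2.44 ± 0.07) and inhibitory neurons (1.29 ± 0.09), and Rab42 in inhibitory neurons (1.49 ± 0.15).

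The stretches before the 3 members with the largest microglial fold changes (GRCm38.p6, minus strand) follow, Rab39 at chr9:53706233-53706482, Rab32 at chr10:10558208-10558457 and Rab20 at chr8:11478641-11478890; each is shown to let the shared and differing letters be seen. Capitals mark GAGGAAGT, a motif of the myeloid factor PU.1, then the core of a cyclic AMP response element (TGACGT), an E-box (CACGTG) and the Sp and KLF box given above, on either strand.
Rab39: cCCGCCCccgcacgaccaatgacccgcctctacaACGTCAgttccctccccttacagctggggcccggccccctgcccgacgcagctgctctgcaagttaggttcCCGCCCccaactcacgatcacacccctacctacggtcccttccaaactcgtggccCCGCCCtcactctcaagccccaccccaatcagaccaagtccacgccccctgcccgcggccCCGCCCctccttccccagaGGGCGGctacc
Rab32: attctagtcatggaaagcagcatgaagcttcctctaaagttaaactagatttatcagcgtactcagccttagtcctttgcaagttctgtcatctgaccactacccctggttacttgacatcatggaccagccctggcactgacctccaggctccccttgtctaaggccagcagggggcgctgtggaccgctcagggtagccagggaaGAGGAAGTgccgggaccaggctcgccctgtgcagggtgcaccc
Rab20: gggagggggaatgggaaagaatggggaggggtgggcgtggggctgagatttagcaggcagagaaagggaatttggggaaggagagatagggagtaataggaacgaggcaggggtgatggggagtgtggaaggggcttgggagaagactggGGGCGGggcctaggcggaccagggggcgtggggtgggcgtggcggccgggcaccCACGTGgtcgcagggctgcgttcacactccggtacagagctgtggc

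GAGGAAGT was found before Rab32, with its first base 43 bases before the start, and not before Rab39 or Rab20; 2 of the 47 matched members (Rab32 and Rab2b) and 2.79% of the 27025 genes held it. TGACGT was found before Rab39 and CACGTG before Rab20, against 7.29% and 6.86% of all genes and 7 and 5 of the 47 members. The 3 stretches share none of these motifs, except for GGGCGG before Rab39 and Rab20. By GENCODE, Rab32 starts at chr10:10558265 and Rab20 at chr8:11478710. The GAGGAAGT and CACGTG marked for them therefore lie inside those genes in that annotation.

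Between both neuron types and the 4 glial types, 14 members were higher in neurons, against 19.8% of all genes, and 7 in glia, against 13.8%. Of the 8 secretory members 6 were called higher in neurons and none in glia. Of the 7 early endosome members 3 were higher in glia, Rab31, Rab20 and Rab22a, and none in neurons. The contrast averages over types, so a call does not place each neuron type above each glial type. Rab27a, among the 6, had its highest mean in microglia (110.5 CPM). Rab30, also called higher in neurons, had its highest mean in astrocytes (197.1 CPM). The extremes of the contrast were Rab3c (3.42 ± 0.07, SE) and Rab31 (-3.29 ± 0.09). The median log2 difference was -0.09 over the members and 0.00 over all genes. The 23 members called in no single type, which include Rab5a to Rab5c, Rab11a, Rab11b, Rab7, Rab2a and Rab2b, had log2 fold changes between -0.88 and 0.97, and each had an adjusted p below 0.05 in some type.

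Rab machinery was counted in the same contrast of neurons with glia. Of 42 effectors, 13 were higher in neurons and 3 in glia. Of 25 exchange factors the counts were 4 and 3, and of 21 GTPase-activating proteins 5 and 3. None of 7 genes for prenylation and recycling of Rab proteins was called. The largest differences were in Myo5b, a motor that binds Rab11 (3.99 ± 0.16), and Rims1, a Rab3 effector of the active zone (3.44 ± 0.06), and on the glial side in Rin2, a Rab5 exchange factor (-3.23 ± 0.15), and Appl2, a Rab5 effector (-2.32 ± 0.07; log2, SE). In microglia, where 16.1% of all genes were higher and 25.9% lower, 8 of the 21 GTPase-activating proteins were higher and 3 lower, 7 of the 25 exchange factors were higher and 1 lower, and 3 of the 42 effectors were higher and 16 lower. Scaled by library size alone, the microglial counts were 10 and 2, 8 and 1, and 5 and 14, beside 19.6% and 21.4% of all genes.

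Within excitatory neurons, each subtype was compared with the mean of the other 2, and 48 members were tested. The 4794 excitatory nuclei outside the 3 subtypes were not part of this comparison. No member was higher in dentate granule neurons, against 6.28% of all genes, and 5 were lower, against 8.19%. In CA1 5 were higher (4.83%) and 1 lower (5.54%), and in CA3 2 were higher (6.3%) and 1 lower (3.85%). Rab3c lay at 44.05 to 61.5 CPM with a median of 49.9 in dentate granule neurons, 94.8 to 141 CPM with a median of 109.7 in CA3 and 214 to 271 CPM with a median of 238 in CA1, with no overlap between the 3. Its log2 fold change was 1.73 ± 0.07 (SE), adjusted p = 7.20e-15, in CA1 and -1.73 ± 0.07 in dentate granule neurons. Rab37 was highest in CA3: it lay at 3.33 to 12.8 CPM with a median of 9.06 there, and means of 0.840 and 0.708 CPM in dentate granule and CA1 neurons (3.46 ± 0.31 (SE), adjusted p = 4.35e-09). WT 1 and J20;GKO, at 3.33 and 4.51 CPM from 11 UMIs each, were its lowest CA3 libraries.

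Rab8b, the microglial member above, was highest in CA1 among the 3 subtypes. It lay at 80.1 to 133 CPM with a median of 111 in CA1. In dentate granule neurons it lay at 38.8 to 62.6 CPM with a median of 43.8. The range in CA3 was 27.5 to 44.8 CPM, with a median of 32.3. The CA1 values were above all others, and the log2 fold change was 1.49 ± 0.11 (SE), adjusted p = 2.98e-09. Rab15 rose from 25.4 ± 1.404 CPM in dentate granule neurons to 41.5 ± 9.197 in CA1 and 67.3 ± 11.7 in CA3 (SD, n = 8), and was called higher in CA3 (1.07 ± 0.07, SE) and lower in dentate granule neurons (-1.11 ± 0.07). Rab27b, Rab38 and Rab42 were higher in CA1, at 1.02 ± 0.07, 1.66 ± 0.18 and 1.02 ± 0.10. Rab27b and Rab42 lost the call with library size alone, at 0.98 and 0.97, and Rab42 also without WT 1, WT 3 or GKO 2, at 0.97 to 0.999.

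**Figure D3:**
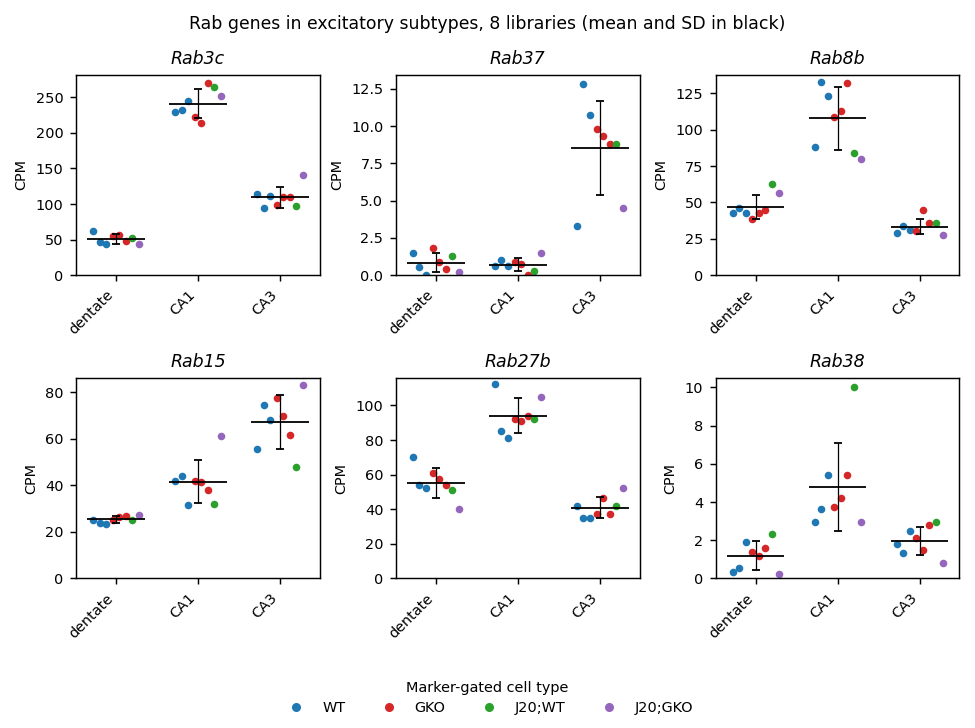
CPM of 6 Rab genes in dentate granule, CA1 and CA3 neurons in each of the 8 libraries (points, coloured by group), with the mean and SD in black and a linear axis from 0 for each gene. Rab3c, Rab8b and Rab27b are highest in CA1 and Rab37 and Rab15 in CA3.

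The deletion of Gsap was then examined in the libraries labelled GKO against WT, 3 mice a group, in the 6 types and 3 subtypes. Since GSAP has been placed in vesicle trafficking, the question was whether Rab transcripts changed. No member passed an adjusted p below 0.05 and an absolute log2 fold change above 0.3 in edgeR in any of the 9 fits, and neither did any other gene, so the background was 0% of all genes in each. DESeq2 called 0 members as well, with 1 at an unadjusted p below 0.05. The smallest adjusted p of a member in edgeR was 0.9997. Median log2 differences over the members tested ran from -0.04 in OPCs to 0.06 in microglia, beside 0.00 over all genes in both types. In excitatory neurons 49 of 52 members lay within 0.3 of 0 on the log2 scale, with a median SE of 0.12, and in microglia 28 of 30 with a median SE of 0.21. In simulated copies of these data, a log2 change of 1 was recovered in 57.5% to 81.5% of the altered genes over the 9 fits.

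Among members at 5 CPM or more, WT and GKO libraries did not overlap for 2.13% to 12.5% of members in a type, beside 3.81% to 8.32% of all genes. Only 4 tests of a member had an unadjusted p below 0.05, 1 each in CA1, CA3, oligodendrocytes and microglia, where 1.28%, 1.81%, 1.48% and 2.52% of all genes did. In the other 5 fits no member did; the shares of all genes were 1.18% in excitatory neurons, 1.35% in inhibitory neurons, 1.59% for astrocytes, 2.4% in OPCs and 1.6% in dentate granule neurons. Rab39 in CA1 neurons was at 4.196, 4.01 and 4.75 CPM in WT and 5.96, 6.59 and 6.62 in GKO, from 15 to 39 UMIs. The groups did not overlap, and the log2 difference was 0.59 ± 0.25 (SE). Rab9 in CA3 neurons, an X-linked gene, was at 10.6, 12.3 and 13.6 CPM in WT and 7.35, 9.06 and 9.02 in GKO (-0.49 ± 0.22), again without overlap. Rab21 in oligodendrocytes was at 75.6, 59.6 and 70.95 CPM in WT and 87.7, 78.7 and 85.1 in GKO (0.31 ± 0.14). Rab34 in microglia was at 25.2, 24.4 and 37.3 CPM in WT and 26.1, 60.7 and 62.4 in GKO (0.76 ± 0.36), and here GKO 1 lay within the WT range.

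With the replicate number as a block in edgeR, 15 tests of a member had an unadjusted p below 0.05 in place of 4. Of all genes, 3.35% (CA3) to 6.22% (microglia) did so under the block, where 1.18% to 2.52% did without it. The smallest adjusted p of a member was 0.3105, for Rab31 in oligodendrocytes. Rab31 there was at 1531, 703 and 581 CPM in WT 1 to 3 and 1619, 1070.0 and 789 in GKO 1 to 3. The GKO value was the higher one in each of the 3 same-numbered pairs, and the blocked log2 difference was 0.39. Pairs here are libraries of the same number, which were not shown to be matched mice. The next smallest unadjusted p, 0.0071, was for Rab3a in excitatory neurons, which was at 33.8, 40.7 and 46.6 CPM in WT 1 to 3 and 27.9, 33.8 and 39.0 in GKO 1 to 3, lower in GKO in each pair (blocked log2 difference -0.24, adjusted p = 0.9999 in edgeR). Rab3a was also among the 15 in CA1 and inhibitory neurons, at -0.31 and -0.29. Rab26 in excitatory neurons was at 53.2, 71.6 and 82.2 CPM in WT 1 to 3 and 57.2, 99.6 and 89.8 in GKO 1 to 3, higher in GKO in each pair, at a blocked log2 difference of 0.26. Of the 15, 9 were higher and 6 lower in GKO. No member was called under the block.

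Differences between WT 1 and GKO 1 and the other 4 mice were wider than those between the genotypes. In that comparison, added after the values were seen, 27 tests of 9 members passed the same thresholds, 10 higher and 17 lower in WT 1 and GKO 1. The members called were 5 in excitatory neurons (10.6% of all genes), 2 in inhibitory neurons (5.54%), 2 in astrocytes (11.6%), 4 in oligodendrocytes (14.2%), 1 in OPCs (6.71%), 1 in microglia (6.71%), 5 in dentate granule neurons (9.18%), 5 in CA1 (11.7%) and 2 in CA3 (4.23%). The members' shares, 2.86% to 10.6%, were at or below those of all genes in 7 of the 9 fits. Rab31 was higher in WT 1 and GKO 1 in oligodendrocytes (1.03 ± 0.14, SE, adjusted p = 6.99e-04 in edgeR), excitatory neurons (0.87 ± 0.11) and inhibitory neurons (0.89 ± 0.15). In oligodendrocytes these were the libraries at 1531 and 1619 CPM. In excitatory neurons they held 54.3 and 49.9 CPM against 23.7 to 34.6 in the other 4. Oligodendrocyte markers moved with this: the median of 4 (Mbp, Mobp, Mag and Mog) was 1.78% of its oligodendrocyte level in the excitatory neurons of both WT 1 and GKO 1 and 0.682% to 1.27% in the other 4 mice, while Rab31 was at 2.91% to 5.96% of its own in all 6. In inhibitory neurons the markers did not separate these mice, at 2.05% in WT 1 and 1.09% in GKO 1 against 0.57% to 1.31% in the other 4. The part of this background in the result was not tested.

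Rab37 was higher in the oligodendrocytes of WT 1 and GKO 1 too (1.25 ± 0.16, SE), at 62.7 and 59.9 CPM against a highest of 30 in the other 4. Rab34 was lower there in astrocytes (-0.69 ± 0.13), OPCs (-0.76 ± 0.15) and excitatory neurons (-0.54 ± 0.07), Rab26 in excitatory neurons (-0.58 ± 0.08) and Rab3a in inhibitory neurons (-0.77 ± 0.14). Rab24, a Rab of autophagy, was lower in excitatory neurons (-0.45 ± 0.10). WT 1 and GKO 1 differ from the other 4 in date and in Xist class at once, and which of these the differences follow cannot be told apart. Fewer tests passed without GKO 1 or without WT 1, but each of those fits leaves 1 mouse on that side, so no count is given.

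**Figure D4:**
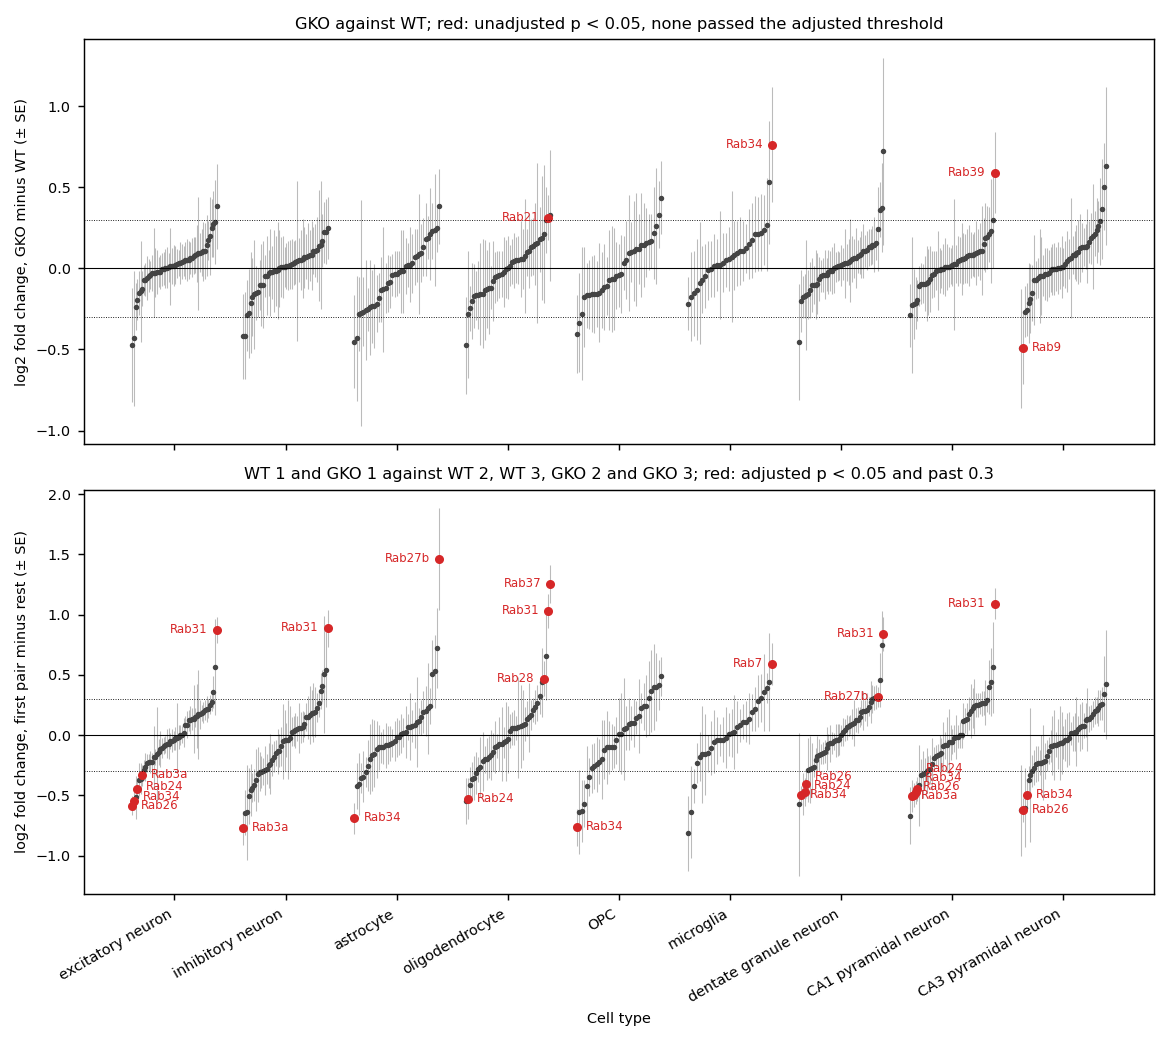
Log2 fold change with SE (grey bars) of each tested Rab gene in 9 cell types, for GKO minus WT (upper panel) and for WT 1 and GKO 1 minus the other 4 mice (lower panel); red points are named, and dotted lines mark 0.3. No point passes the adjusted threshold above and 27 do below, with Rab31 high in 5 types and Rab34 low in 6.

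The J20 pair, 1 mouse a genotype, has no replicate check, and the mice also differ in date and in Xist class; their CPM are given with 95% counting intervals, which cover counting error only. Over 48 members with enough UMIs in excitatory neurons, the median log2 ratio (J20;GKO over J20;WT) was -0.04, as it was over all genes. It ran from -1.07 to 0.80, and 7 members passed 0.5 in either direction, where 18.7% of all genes did. Rab24 was at 57.8 CPM for J20;WT (54.1 to 61.6) and 100.6 for J20;GKO (95.7 to 105.7), and Rab15 at 33.6 (30.8 to 36.6) and 58.4 (54.6 to 62.3). In the opposite direction Rab3b was at 11.9 (10.2 to 13.7) and 5.64 (4.52 to 6.96), and Rab38 at 8.21 (6.87 to 9.75) and 4.02 (3.08 to 5.15). Between 2 mice of 1 genotype the largest log2 ratio was 0.79 for Rab24, 0.24 for Rab15, 0.79 for Rab3b and 0.99 for Rab38, so of these 4 Rab15 stood farthest beyond that spread. In all, 16 of the 48 members passed it. The share of all genes past their own such spread was not computed, so this count does not set the members apart. Rab27a was at 49.4 CPM for J20;WT (45.96 to 52.9) and 29.1 for J20;GKO (26.5 to 31.9), and Rab40b at 138 (133 to 144) and 86.03 (81.5 to 90.8), log2 ratios of -0.76 and -0.69, where 2 mice of 1 genotype differed by at most 0.23 and 0.19. Rab24 in the WT and GKO libraries was at 78.7 to 136 CPM, so that its low J20;WT value, not the J20;GKO value, lay outside their range.

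In dentate granule neurons Rab26 was at 49.9 CPM for J20;WT (44.2 to 56.2; 276 UMIs) and 9.79 for J20;GKO (6.96 to 13.4; 39 UMIs), a log2 ratio of -2.35, where 2 mice of 1 genotype differed by at most 0.77. The 7 other libraries lay between 43.8 and 74.7 CPM. In J20;GKO Rab26 was at 96.3 CPM in CA1 and 95.99 in CA3, within the range of the other libraries there, at 63.4 to 108 CPM with a median of 90.3 and 70.2 to 134 CPM with a median of 108. Rab27a in dentate granule neurons measured 75.4 CPM for J20;WT and 39.9 for J20;GKO (log2 ratio -0.92), outside the 60.01 to 69.1 of the WT and GKO libraries on both sides. Rab40b there was at 205 and 125 CPM (-0.71), against 129 to 155 in the WT and GKO libraries.

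**Figure D5:**
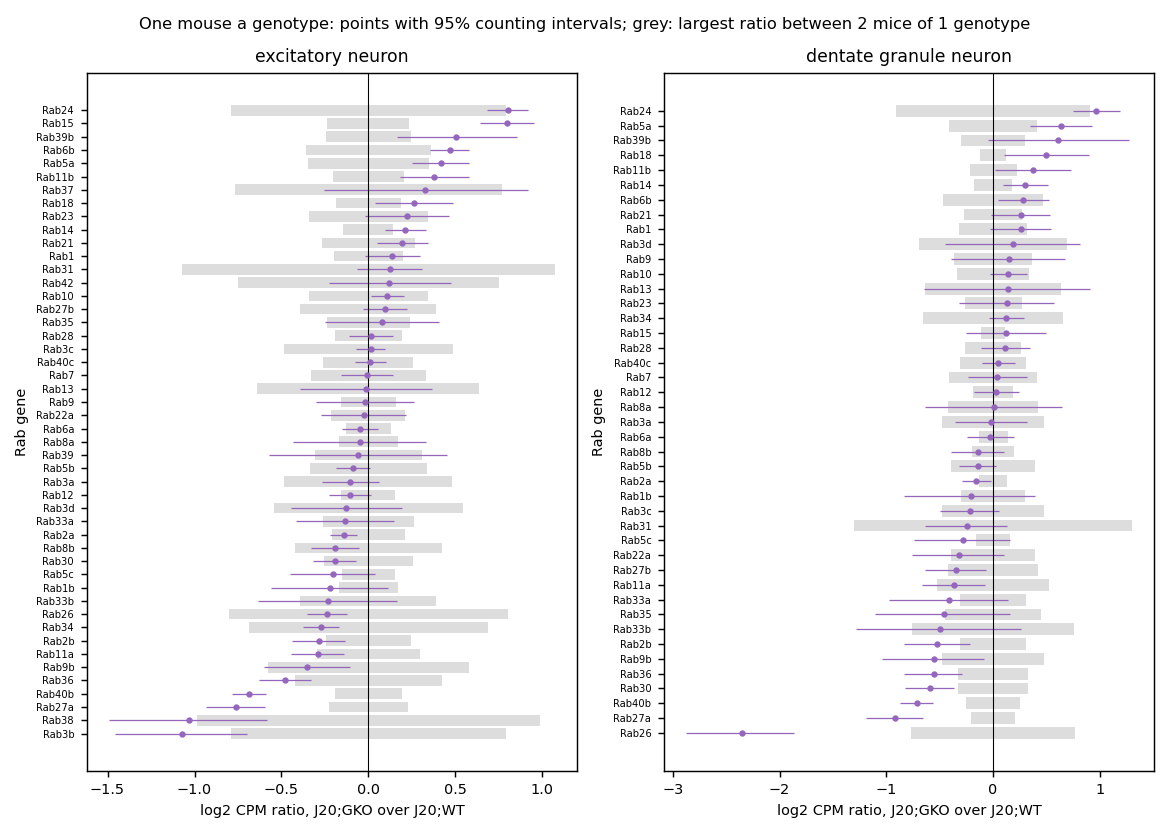
Log2 CPM ratio of J20;GKO over J20;WT for each Rab gene with enough UMIs in excitatory neurons (left) and dentate granule neurons (right), with 95% counting intervals, beside the largest ratio between 2 mice of 1 genotype (grey bars, both signs). Rab26 in dentate granule neurons, at -2.35, is the point farthest from 0 and from its grey bar.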

How the data were processed

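Nuclei of 8 hippocampi were measured with the 10x 3′ assay, 1 library a mouse. The authors aligned reads to mm10 with Cell Ranger and deposited raw UMI counts per gene and nucleus, with no normalization; their own filter was applied here (at most 5% mitochondrial UMIs, 200 to 7500 genes), which kept 32041 of 33314 barcodes. Nuclei were assigned by summed UMIs of marker genes. The cutoffs were set after the data were seen, 753 nuclei that passed 2 gates were dropped, and no doublet caller was run. Between 0.527% (microglia) and 12.2% (CA1) of a type's nuclei lay within 20% above its cutoff. The members and gene lists were chosen with earlier results of these data known.

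UMIs were summed per library and type, from 317448 UMIs (OPC) to 30085698 (excitatory) in a sum, and tested in edgeR 4.0.16 (R 4.3.3; TMM, low-count filter, quasi-likelihood, Benjamini-Hochberg over all genes); DESeq2 1.42.0 was an alternative. The scripts were tested on simulated data. Same-numbered WT and GKO libraries deviated together over all types (correlations 0.736, 0.359 and 0.465), so a fit with the replicate number as a block is given. These were deviations from group means, so a shift shared by WT 1 and GKO 1 also moves the other libraries together. Libraries of unlike number were not compared, so the correlations do not show that same-numbered mice are pairs. Named members were the 3 highest and the lowest of each contrast, fixed paralog groups and Lrrk2 partners, members at an unadjusted p below 0.05 between genotypes, and the extremes of the J20 pair; Rab22a, Rab33a, Rab36, Rab40b, Rab40c and Rab42, the date comparison the dentate values of the J20 pair and its Rab27a and Rab40b values were added after their values were seen. Promoter sequences are RefSeq, GRCm38.p6; 47 of 59 members matched by symbol.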

Additional observations from a re-analysis of the deposited data

Results flagged for a closer look

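In 24 of 342 groups of 8 libraries, a gene in a cell type, 1 library stood apart from the other 7 by Dixon's ratio; chance gives about 1 in 20, or 17.1 groups. Of the 24, 14 were in the J20 libraries, which differ from the others in age and transgene and, for J20;WT, in date. The rule was run on Rab genes only. How often it would flag genes at large, in these libraries or others, was not computed.

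J20;WT was the high library for Rab36 (62.0 CPM) and Rab40b (205 CPM) in dentate granule neurons, Rab27a in inhibitory neurons (72.0, against 39.0 to 47.0 in the others), Rab40b (28.0) and Rab1b (22.2) in oligodendrocytes, and Rab40c in astrocytes (98.7). It was the low library for Rab24 in astrocytes (42.1, against 89.3 to 150.6), Rab39b in CA3 neurons (4.41), Rab11b in oligodendrocytes (38.7) and Rab5a in inhibitory neurons (29.5).

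J20;GKO was the low library for Rab26 (9.79), Rab27a (39.9) and Rab33a (11.04) in dentate granule neurons and for Rab27a in excitatory neurons (29.1). Among GKO libraries, GKO 1 was low for Rab9 in excitatory neurons (11.4) and Rab21 in CA1 (37.1) and high for Rab10 in CA1 (139.8). GKO 2 was low for Rab22a in OPCs (16.9), Rab30 in inhibitory neurons (108) and Rab6b in astrocytes (26.3) and high for Rab5a in microglia (123.6), and GKO 3 was high for Rab3d in CA3 (12.5). Among WT libraries, WT 3 was high for Rab3a in CA3 (49.2) and WT 1 low for Rab18 in oligodendrocytes (24.3).

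In a pair of genes the genotypes separated in opposite directions in 2 cell types, and these differences between types were not tested. In a single type, 3.81% to 8.32% of all genes at 5 CPM or more separated. How often all genes separate in opposite directions was not computed, so the pair is not set apart from other genes. Every GKO library was higher than every WT library for Rab18 in microglia (log2 fold change 0.27) and lower in dentate granule neurons (-0.10). For Rab39 every GKO library was lower in microglia (-0.22) and higher in CA1 neurons (0.59).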

How the results depend on the processing

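No member was called between GKO and WT under any of the 14 alternatives, and the smallest adjusted p in them was 0.3105, with the replicate block. The 4 tests at an unadjusted p below 0.05 became 1 with DESeq2, 8 with no low-count filter, 15 with the replicate block, 14 with date as a term, and 0 to 10 when 1 library was left out (0 without GKO 2, 2 without WT 2 or GKO 3, 9 without WT 1 and 10 without GKO 1). The share of all genes at such a p, 1.18% to 2.52% in the main fits, moved as well. It was 0.349% to 0.748% with DESeq2 and 1.33% to 3.15% with no low-count filter. With the replicate block it was 3.35% to 6.22%, and with date as a term 3.18% to 5.91%. Under the replicate block 1 of all genes was called in oligodendrocytes, where none was in the main fit, and it was not a member. The block was fitted for GKO against WT only. The date calls, 27 in the main fit, were fewer without GKO 1 or without WT 1, where 1 mouse was left on that side. They ranged up to 30 without another library. Scaled by library size alone, microglia had 14 higher members in place of 7 (Rab14, Rab22a, Rab35, Rab7, Rab11a, Rab5c and Rab31 were added), and CA1 had 3 in place of 5. Library size moved the median of all genes by 0.25 in microglia, -0.11 in excitatory neurons and -0.13 in oligodendrocytes (log2). With no low-count filter, dentate granule neurons had 1 higher member in place of 0 and CA1 2 lower in place of 1. The 3 lower members of OPCs were 5 without WT 3. Counted per nucleus and not per UMI, the median log2 ratio of the J20 pair in excitatory neurons was 0.533 in place of -0.04. A count per nucleus is not scaled for depth, and it carries the unequal depth of these libraries. Their excitatory nuclei held a median of 10860 UMIs in J20;GKO and 7053 in J20;WT. The 36 differences between cell types picked by rank (the 3 highest and the lowest of each contrast) kept direction and call in all 539 values computed. Over all 130 calls of a member between types, none reversed and 12 lost the call in at least 1 alternative: Rab23, Rab34, Rab15, Rab38 and Rab3d (lower in microglia), Rab9b and Rab15 (lower in oligodendrocytes), Rab3b (lower in astrocytes), Rab3d (lower in OPCs), Rab6b (neurons against glia), and Rab27b and Rab42 (CA1). Rab38 could not be tested with the stricter gate. Where not stated above, the cause was not tested. Depth limits Rab20, Rab32 and Rab29 in microglia and Rab38 in OPCs, with at most 15 UMIs a library there, and 8 members that could not be tested.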
